A study of Mus musculus with 6 samples.

Results

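The enzymes described here clear quinones, carbonyl compounds and epoxides from liver cells. The list held 10 genes: the quinone reductases Nqo1 and Nqo2, the carbonyl reductases Cbr1 and Cbr3, the aldo-keto reductases Akr1a1, Akr1b3 and Akr1b8, the alkenal reductase Ptgr1, and the epoxide hydrolases Ephx1 and Ephx2. Members were found by gene symbol in the array's annotation, and for a gene with several probe sets the one with the highest mean log2 signal over the 6 arrays was used. On these arrays 9 of the 10 had a probe set with a single gene symbol, out of 34472 probe sets in all, and Akr1b3, which encodes mouse aldose reductase, was not analysed here. All 6 arrays were hybridised with liver RNA of male mice, 12 weeks old, of the C57Bl/6J background. Every mouse carried the FAH5981SB point mutation in Fah, which encodes fumarylacetoacetate hydrolase, and ate a chow low in tyrosine and phenylalanine. In the continuous group (3 arrays) the mice drank 8 mg/l NTBC (nitisinone) with 3% dextrose throughout. The same NTBC and dextrose doses are listed for the withdrawal group (3 arrays), whose mice went without NTBC for 7 days from the age of 11 weeks. Both groups therefore lack functional Fah, and mice with an intact gene were not analysed here. Replicates are called biological in the labels, but no animals are named, and the p-values reflect only how far these 6 samples scatter.

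Fumarylacetoacetate hydrolase carries out the last step of tyrosine breakdown, and without it reactive intermediates such as fumarylacetoacetate build up unless NTBC blocks the pathway upstream. Quinone and carbonyl reductases use reduced pyridine nucleotides to turn quinones, aldehydes and ketones into less reactive alcohols and hydroquinones, and epoxide hydrolases add water to epoxides to give diols. Several of these genes, with Nqo1 as the textbook example, are targets of the transcription factor NRF2, which is released from KEAP1 when electrophiles modify that protein. The comparison asked how the transcripts of this enzyme group differ after a short interruption of NTBC.

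After withdrawal, 6 of the 9 measured genes were higher and none was lower. Cbr3 rose 49.6-fold, Nqo1 13.7-fold, Cbr1 7.82-fold, Ptgr1 3.42-fold, Ephx1 3.12-fold and Akr1a1 1.85-fold. Nqo2, Akr1b8 and Ephx2 did not pass the test. The threshold was an adjusted p of 0.05 from limma over all 34472 probe sets, which 9.40% passed, 6.21% as higher and 3.20% as lower after withdrawal. As deposited, 66.0% of the probe sets that passed were higher (2139 higher and 1102 lower), against 77.2% when arrays were first centred on their medians (2393 higher and 708 lower). The median log2 change of the 9 genes was 1.64, beside -0.08 for all probe sets and 0.02 for all probe sets after that centring. The genes were listed with earlier results of these data known, so their contrast with all probe sets is not independent of these data. With each array left out in turn, each of the 6 genes stayed above the threshold. The withdrawal and continuous arrays did not overlap for these 6 genes as higher and for Ephx2 as lower, where 27.6% of all probe sets did not overlap, 13.9% as higher and 13.7% as lower.

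**Figure D1:**
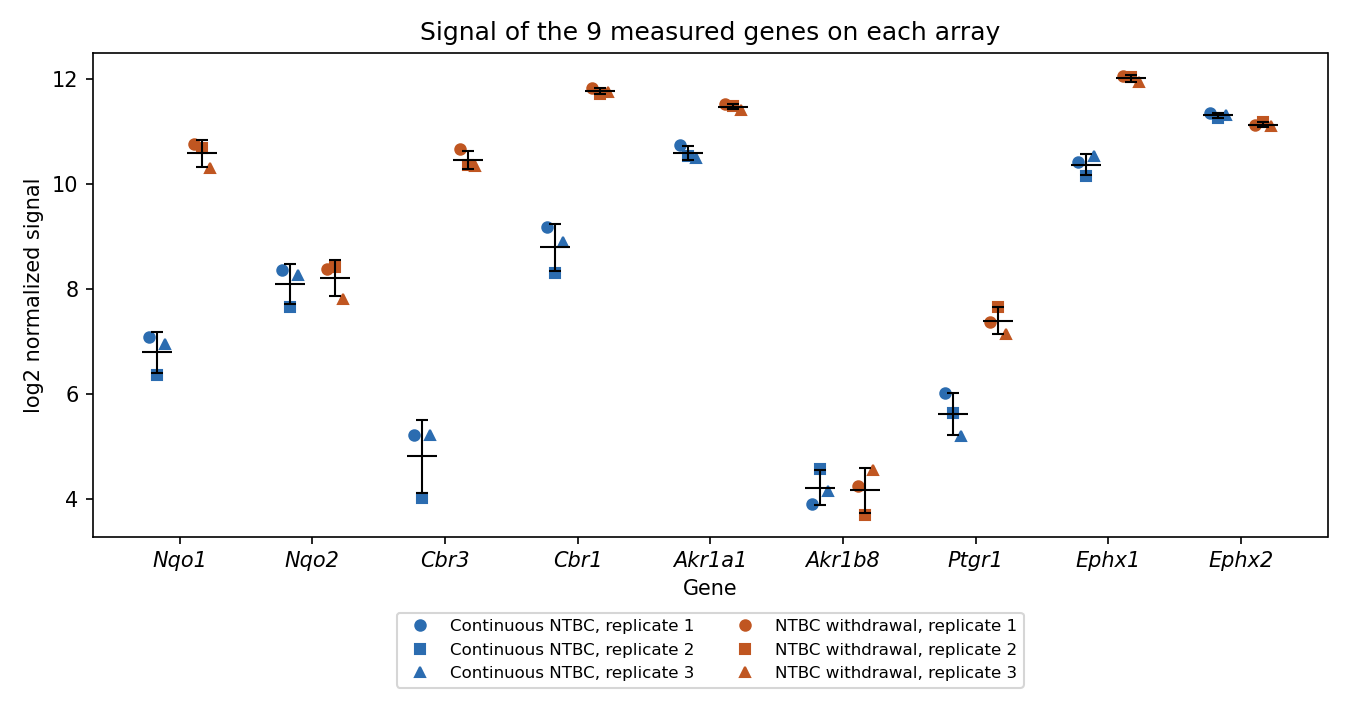
Log2 normalized signal (vertical axis) of the 9 measured genes (horizontal axis) on each array, with continuous NTBC in blue and NTBC withdrawal in orange, a marker shape for each replicate number, and black bars for the mean and SD of 3 arrays. For Nqo1, Cbr3, Cbr1, Akr1a1, Ptgr1 and Ephx1 the 3 withdrawal arrays lie above the 3 continuous arrays, and for Nqo2 and Akr1b8 the groups overlap.

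Nqo1 encodes the quinone reductase that reduces quinones straight to hydroquinones, by-passing the semiquinone radical. With NTBC its log2 signals were 7.08, 6.35 and 6.95 (replicates 1 to 3, the order used throughout), and after withdrawal they were 10.75, 10.68 and 10.29. The groups lay far apart, with 3.21 log2 units between the highest continuous and the lowest withdrawal array. The log2 change was 3.78 (SE 0.21, 95% interval 3.30 to 4.26, limma adjusted p = 8.27e-06), rank 16 among all rises. Nqo2, its relative, prefers the reduced form of nicotinamide riboside as electron donor. Its signals were 8.35, 7.65 and 8.26 with NTBC and 8.38, 8.42 and 7.81 after withdrawal, and the groups overlapped. The log2 change was 0.12 (SE 0.23, 95% interval -0.39 to 0.63, limma adjusted p = 0.800). That interval holds neither the rise of Nqo1 nor a doubling of signal, and it leaves smaller changes in either direction possible.

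Within each array the Nqo1 signal minus the Nqo2 signal was almost constant in a group. It was -1.27, -1.30 and -1.31 with NTBC and 2.37, 2.26 and 2.48 after withdrawal. The array with the lowest Nqo1 signal of the continuous group, replicate 2, also had the lowest Nqo2 signal of that group. The difference between the genes grew by 3.66 log2 units, from -1.29 ± 0.02 (SD, n = 3) to 2.37 ± 0.11 (SD, n = 3). An exact two-sided permutation test gave p = 0.10, adjusted p = 0.10 over the 3 pairs tested, which is the smallest value that 3 against 3 arrays allow. Signals of different probe sets cannot be set against each other as amounts of RNA, so only the change of this difference is informative.

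The carbonyl reductases Cbr1 and Cbr3 both rose, and Cbr3 had the second-largest rise of all probe sets. Cbr1 is the broad NADPH-dependent carbonyl reductase of the liver, acting on quinones, prostaglandins and lipid aldehydes, and Cbr3 is a close relative with a narrower range of substrates. Cbr3 read 5.21, 4.01 and 5.22 with NTBC and 10.65, 10.36 and 10.33 after withdrawal. The continuous arrays scattered over more than a log2 unit (SD 0.70), the withdrawal arrays far less (SD 0.18), and the gap between the groups was 5.11. The log2 change was 5.63 (SE 0.29, 95% interval 4.98 to 6.28, limma adjusted p = 5.24e-06). The table carries no background flags, and the continuous replicate 2 signal lay below the lower quartile of that array (4.24). With the lower quartile of each array as a floor, the rise was 47.1-fold. Without continuous replicate 2 the log2 change was 5.23.

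Cbr1 was represented by 2 probe sets, and both rose. On the brighter one the signals were 9.18, 8.30 and 8.89 with NTBC and 11.82, 11.70 and 11.75 after withdrawal, with a log2 change of 2.97 (SE 0.21, limma adjusted p = 3.28e-05). On the other they were 8.31, 7.63 and 8.23 with NTBC and 10.76, 10.57 and 10.51 after withdrawal, with a log2 change of 2.56 (SE 0.20, limma adjusted p = 4.52e-05). The groups did not overlap on either probe set, and continuous replicate 2 was the lowest array on both, as it was for Cbr3. The Cbr3 signal minus the Cbr1 signal was -3.97, -4.29 and -3.67 with NTBC and -1.17, -1.34 and -1.42 after withdrawal. The change of Cbr3 exceeded that of Cbr1 by 2.67 log2 units (exact two-sided permutation p = 0.10, adjusted p = 0.10 over 3 pairs, the smallest possible). The pair are close relatives, and how far their transcripts share probes on this array was not tested.

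**Figure D2:**
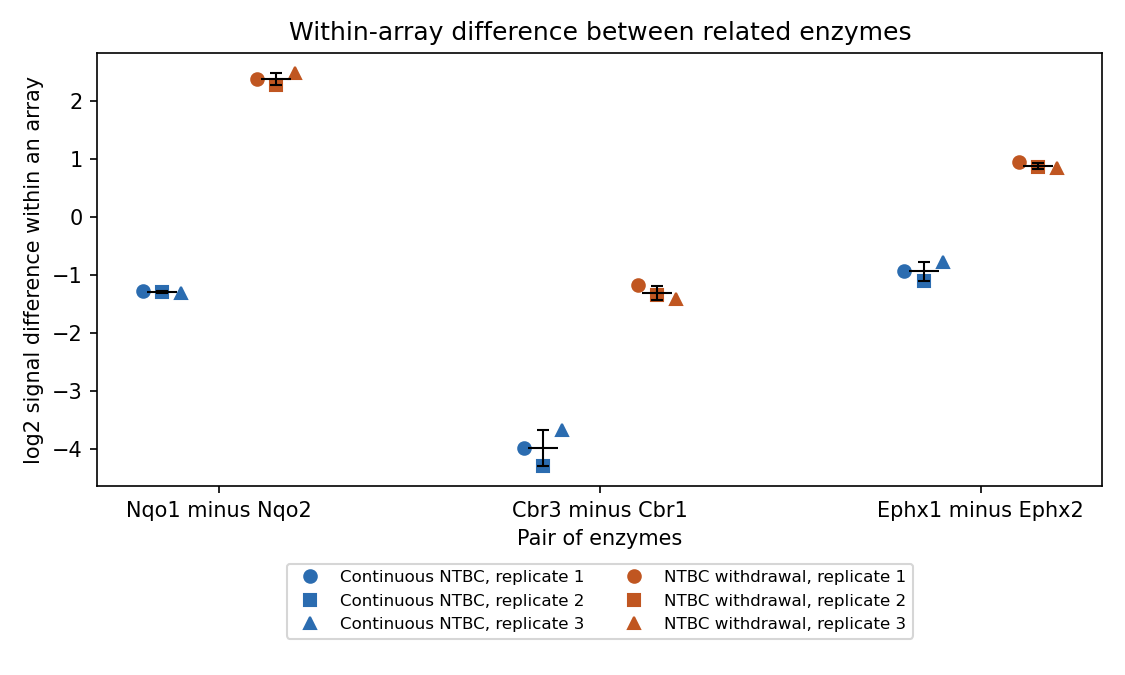
Difference in log2 signal between 2 related enzymes within each array (vertical axis) for 3 pairs (horizontal axis), with continuous NTBC in blue, NTBC withdrawal in orange, a marker shape for each replicate number, and black bars for the mean and SD of 3 arrays. In each pair the 3 withdrawal arrays lie above the 3 continuous arrays, by 3.66 for Nqo1 minus Nqo2, 2.67 for Cbr3 minus Cbr1 and 1.82 for Ephx1 minus Ephx2, while the height of a point against zero depends on the probes and has no meaning of its own.

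The promoters of both pairs are shown because the genes of each pair responded by different amounts. The windows run from 250 bases before to 50 bases after the annotated start (RefSeq, GRCm38.p6), 5′ to 3′ on the strand of the gene, and the array's own build is not given in the sources used here. They are chr8:107403156-107403455 on the minus strand for Nqo1, chr13:33964409-33964708 on the plus strand for Nqo2 (the first of 2 windows listed), chr16:93607587-93607886 on the plus strand for Cbr1 and chr16:93682969-93683268 on the plus strand for Cbr3. Capitals mark GCGTG, the core of the xenobiotic response element, on either strand, and TATAAA, the TATA box, on the gene's strand.
Nqo1: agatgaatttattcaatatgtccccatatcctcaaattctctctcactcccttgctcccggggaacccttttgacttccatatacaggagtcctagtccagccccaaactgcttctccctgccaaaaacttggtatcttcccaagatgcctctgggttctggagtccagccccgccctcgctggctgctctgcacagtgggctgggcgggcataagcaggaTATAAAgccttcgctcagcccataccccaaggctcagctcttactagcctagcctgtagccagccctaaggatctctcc
Nqo2: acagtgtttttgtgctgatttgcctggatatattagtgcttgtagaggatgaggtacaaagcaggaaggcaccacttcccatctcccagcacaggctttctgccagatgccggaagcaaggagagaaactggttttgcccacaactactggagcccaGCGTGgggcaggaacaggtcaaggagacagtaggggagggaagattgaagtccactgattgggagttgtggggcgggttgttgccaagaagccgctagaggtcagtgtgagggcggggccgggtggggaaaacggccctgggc
Cbr1: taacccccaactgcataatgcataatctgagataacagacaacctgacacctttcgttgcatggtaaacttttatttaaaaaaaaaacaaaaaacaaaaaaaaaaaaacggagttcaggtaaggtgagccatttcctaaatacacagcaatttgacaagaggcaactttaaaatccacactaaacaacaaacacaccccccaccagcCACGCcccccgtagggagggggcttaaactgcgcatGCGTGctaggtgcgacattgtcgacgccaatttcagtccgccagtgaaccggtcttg
Cbr3: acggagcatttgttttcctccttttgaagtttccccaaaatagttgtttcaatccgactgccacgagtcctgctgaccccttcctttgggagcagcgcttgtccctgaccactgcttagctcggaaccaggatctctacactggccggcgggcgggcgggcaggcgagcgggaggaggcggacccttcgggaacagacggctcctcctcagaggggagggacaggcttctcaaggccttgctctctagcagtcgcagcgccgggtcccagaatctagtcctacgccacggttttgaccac
A promoter window was at hand for 8 of the 10 listed genes, with 9 windows in all, and Ephx2 and Akr1b3 had none. The antioxidant response element core TGACNNNGC, searched on both strands, was in none of the 9 windows and in 12.4% of all 32851 windows of the same length. GCGTG was in both windows of Nqo2, in that of Cbr1 (on each strand once) and in that of Akr1b8, and in 32.4% of all windows. It was not in the windows of Nqo1, Cbr3, Akr1a1, Ptgr1 or Ephx1. TATAAA, a motif added after the sequences were seen, lay at bases -29 to -24 from the start in Nqo1 and at -214 to -209 in Ephx1, and 8.32% of all windows held it. None of the matches overlapped another. CpG dinucleotides numbered 19 in the window of Cbr3, 11 in Cbr1, 5 in Nqo1, and 7 and 2 in the windows of Nqo2. They numbered 11 in Akr1a1, 10 in Akr1b8, 7 in Ptgr1 and 5 in Ephx1, with a median of 7 over all windows. These are letters in a short window, and elements farther away were not searched.

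Aldo-keto reductases reduce aldehydes and ketones with NADPH. Akr1a1, the aldehyde reductase that in mice also takes part in ascorbate synthesis, had signals of 10.73, 10.52 and 10.49 with NTBC and 11.52, 11.47 and 11.41 after withdrawal. The groups were tight (SD 0.13 and 0.06) and did not overlap, and the log2 change was 0.89 (SE 0.14, 95% interval 0.57 to 1.21, limma adjusted p = 0.00387). It was the smallest of the 6 rises and the only one below 2-fold. With a 2-fold minimum added to the threshold, 5 of the 9 genes were higher, where 2.17% of all probe sets were. Akr1b8, a relative of aldose reductase known as a growth factor-induced gene, read 3.91, 4.57 and 4.15 with NTBC and 4.25, 3.70 and 4.54 after withdrawal. The groups overlapped, and 3 of the 6 signals were below the lower quartile of their array. The log2 change was -0.05 (SE 0.24, 95% interval -0.58 to 0.48, limma adjusted p = 0.926). With signals this low, no statement on whether the transcript was present can be made.

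Ptgr1 encodes prostaglandin reductase, which saturates the double bond of alkenals such as hydroxynonenal and inactivates leukotrienes and prostaglandins. Its signals were 6.01, 5.64 and 5.20 with NTBC and 7.37, 7.66 and 7.14 after withdrawal. All withdrawal arrays were higher, by at least 1.13 log2 units. The log2 change was 1.77 (SE 0.22, 95% interval 1.28 to 2.26, limma adjusted p = 0.000843).

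The epoxide hydrolases differed from each other. Ephx1, the microsomal enzyme that hydrolyses epoxides of drugs and other foreign compounds, had signals of 10.41, 10.15 and 10.53 with NTBC and 12.05, 12.03 and 11.93 after withdrawal. The groups were 1.40 log2 units apart, and the change was 1.64 (SE 0.15, 95% interval 1.30 to 1.98, limma adjusted p = 0.000149). Ephx2, the soluble enzyme that hydrolyses epoxides of fatty acids, read 11.34, 11.25 and 11.31 with NTBC and 11.11, 11.17 and 11.09 after withdrawal. All withdrawal signals were lower, by a gap of 0.08, but the log2 change of -0.18 (SE 0.14, 95% interval -0.48 to 0.13) did not pass (limma adjusted p = 0.475). The SD of 0.05 and 0.04 in the Ephx2 groups was the smallest of the 9 genes in each group, and limma draws such variances towards those of other probe sets. The Ephx1 signal minus the Ephx2 signal was -0.93, -1.10 and -0.78 with NTBC and 0.94, 0.86 and 0.84 after withdrawal. It rose by 1.82 log2 units (exact two-sided permutation p = 0.10, adjusted p = 0.10 over 3 pairs, the smallest possible).

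**Figure D3:**
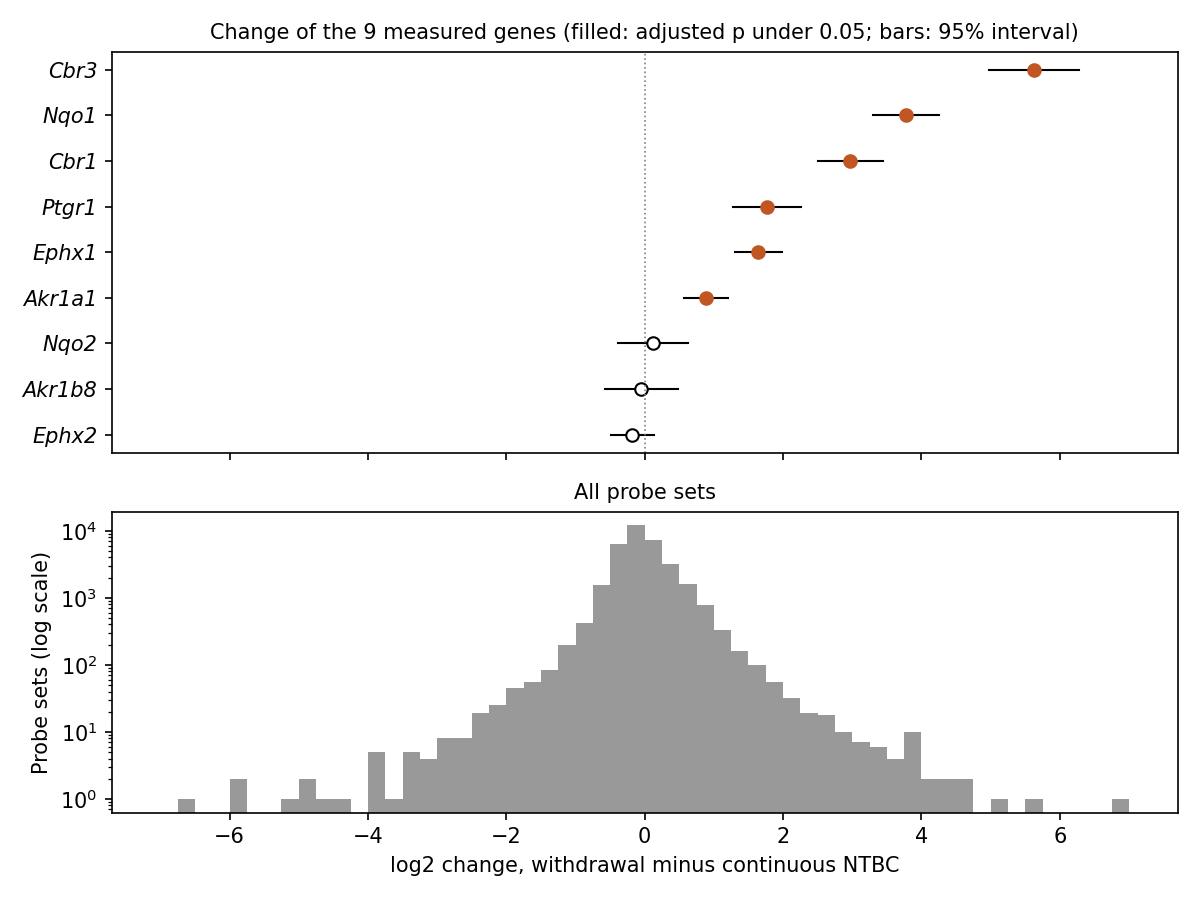
Log2 change from continuous NTBC to withdrawal (horizontal axis) of the 9 measured genes with 95% intervals from limma (upper panel, filled where adjusted p is under 0.05) and of all 34472 probe sets in bins of log2 change (lower panel, number of probe sets on a log scale). Cbr3 at 5.63, Nqo1 at 3.78 and Cbr1 at 2.97 lie in the thin right tail of the lower panel, while Nqo2, Akr1b8 and Ephx2 have intervals that include 0.

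Ranked by log2 change over all 34472 probe sets, Cbr3 was at 2, Nqo1 at 16, Cbr1 at 37, Ptgr1 at 165, Ephx1 at 205 and Akr1a1 at 1006. Profiles like that of Cbr3 were sought only among probe sets with a single symbol of a named protein-coding gene, with predicted genes and pseudogenes passed over. Of those, the 3 most like it were Slc7a11, the cystine and glutamate exchanger, Abcc4, an export pump for organic anions, and Slc1a1, a glutamate and cysteine carrier. Probe sets left out of that search may lie closer. Likeness was the root mean square difference between log2 profiles centred on their own mean over the 6 arrays, and it was 0.72, 0.74 and 0.78. The log2 changes of Slc7a11, Abcc4 and Slc1a1 were 6.79, 4.27 and 4.15, beside 5.63 for Cbr3, so their rises were not of equal size. Slc1a1 had signals of 5.24, 4.84 and 5.47 with NTBC and 9.47, 9.45 and 9.09 after withdrawal. With 6 arrays in 2 groups the measure of likeness mostly reflects the size of the group difference.

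A wider list held 42 other genes, called family genes here. They were grouped by enzyme class, and whether they are related in sequence to the enzymes above was not tested. Of these genes 38 were measured, and 7 of them were higher, 2 lower and 29 did not pass, with a median log2 change of 0.01. Over all probe sets 6.21% were higher and 3.20% lower, with a median of -0.08. The counts by enzyme class below are to be read beside the same shares. The lower count of family genes depended on the processing. It was 8 beside 7 higher with quantile normalization, 6 beside 9 higher with array weights, 4 beside 9 higher with the trend and robust options, and 1 beside 7 higher after median centring. Without withdrawal replicate 2 or withdrawal replicate 3 it was 1, beside 6 higher in both cases. Of 7 other quinone and alkenal reductases, 2 rose. Txnrd1, the cytosolic thioredoxin reductase, which can also reduce quinones, read 9.28, 8.99 and 9.17 with NTBC and 11.27, 11.14 and 11.15 after withdrawal (log2 change 2.04, SE 0.15). Vat1, a quinone oxidoreductase-like protein, rose by 1.51 (SE 0.15, limma adjusted p = 0.000177). Cryz, the zeta-crystallin quinone reductase, and Cryzl1, its relative, did not pass, at log2 differences of -0.49 and -0.50. Their groups did not overlap, which also held for other family genes, 11 of the 38 as lower and 11 as higher. Over all probe sets it held for 13.7% as lower and 13.9% as higher. Ptgr2, which shares its reaction with Ptgr1, had a change of 0.15 (95% interval -0.24 to 0.53).

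Of 11 other aldo-keto reductases, 3 rose and none fell. Akr1c18, which inactivates progesterone, had signals of 3.64, 4.40 and 4.16 with NTBC and 8.34, 7.42 and 7.44 after withdrawal. That was a 12.7-fold rise (limma adjusted p = 3.82e-05), or 11.1-fold when the lower quartile of an array served as the floor. Akr1c19 rose by 2.13 (SE 0.20). Akr1c12 had a change of 0.68 (limma adjusted p = 0.0336), and that call was lost with quantile normalization (adjusted p = 0.0649) and without any 1 array other than continuous replicate 1 (highest adjusted p = 0.125). Akr1c12 was named after its value was seen. Akr1c genes are close relatives, so values of single members are uncertain. Akr1b10, a neighbour of Akr1b8 in the family, had a change of 0.34 and did not pass.

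Of 11 other short-chain carbonyl reductases, 1 rose and 1 fell. Dhrs11 fell from 8.27 ± 0.07 to 7.05 ± 0.10 (log2 signal, SD, n = 3), a change of -1.22 (SE 0.14, limma adjusted p = 0.000547). Dhrs9, a retinol and steroid dehydrogenase, rose by 1.14 (limma adjusted p = 0.00985), which was lost without withdrawal replicate 1 (adjusted p = 0.0503). Cbr4 and Cbr2, which share the carbonyl reductase name with Cbr1 and Cbr3, did not pass either, at log2 differences of -0.46 and -0.40. None of the 3 other epoxide hydrolases Ephx3, Ephx4 and Lta4h passed, with changes from -0.07 to 0.34. Of 6 alcohol dehydrogenases and glyoxalases, Adh7, a dehydrogenase of retinol and ethanol, rose by 1.25 (SE 0.19) and Adh4 fell by 0.69 on the log2 scale (limma adjusted p = 0.0173). Leaving out continuous replicate 3 (adjusted p = 0.0505), withdrawal replicate 2 (0.0707) or withdrawal replicate 3 (0.0602) ended the Adh4 call, as did median centring (0.0619).

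**Figure D4:**
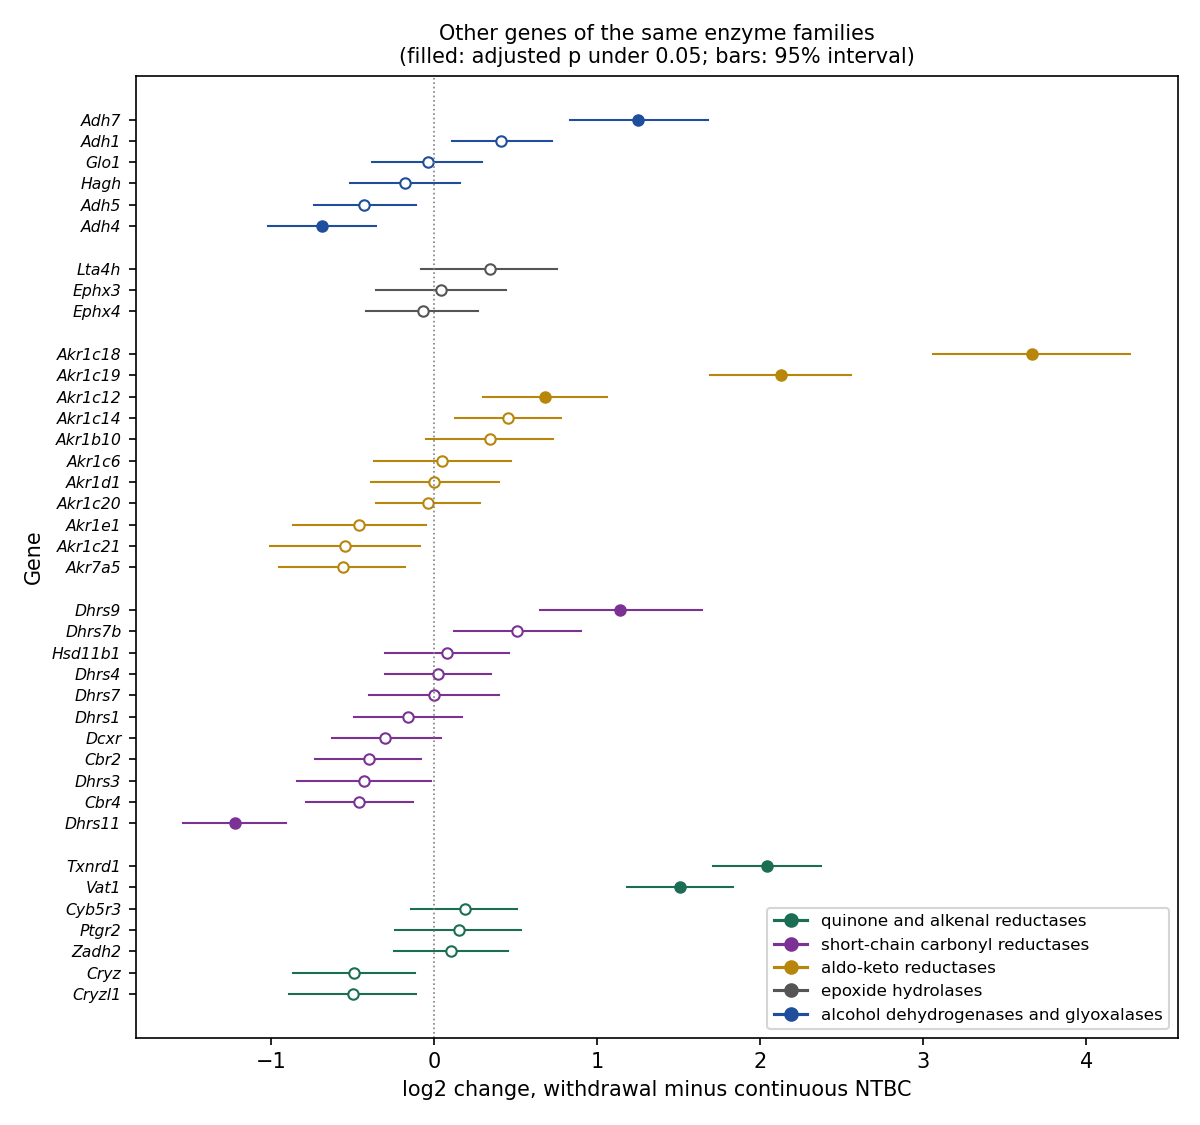
Log2 change from continuous NTBC to withdrawal (horizontal axis) of the 38 measured family genes (vertical axis, coloured by enzyme class), with 95% intervals from limma and filled points where adjusted p is under 0.05. Akr1c18 at 3.67, Akr1c19 at 2.13 and Txnrd1 at 2.04 lie farthest to the right and Dhrs11 at -1.22 farthest to the left, and the 29 open points did not pass.

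The liver label was checked against markers. Summed linear signals of 6 measured hepatocyte markers (of 7 listed), including Alb, were 70620 to 74277 with NTBC and 64132 to 69743 after withdrawal, lower on every withdrawal array, and none of the 6 passed. Of 6 endothelial markers, 2 rose (Clec4g and Lyve1), and their summed signals went from 1133 to 1390 with NTBC to 1795 to 1942 after withdrawal. None of the measured markers of cholangiocytes (5 of 6), macrophages and Kupffer cells (7 of 7), stellate cells (6 of 6), lymphocytes (4 of 5) or neutrophils (4 of 4) passed. Their summed signals overlapped between the groups, and the 3 erythroid markers were not analysed here. Among the endothelial markers, the log2 change was 0.81 for Clec4g and 1.07 for Lyve1. Stab2, Kdr and Cdh5, at 0.36, 0.32 and 0.41, and Pecam1, at 0.02, did not pass. The part of endothelial cells in the 6 rises was not tested. In bulk tissue, fewer cells of a type and less RNA per cell cannot be told apart. Fah, which carries the mutation in both groups and so gives no check of the labels, had a log2 change of -0.15 (limma adjusted p = 0.718). Hpd, the NTBC target, had one of -0.64 (limma adjusted p = 0.0210). Array medians of log2 signal ran from 5.21 to 5.44.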

How the data were processed

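The table deposited by the authors gives a normalized intensity, on a linear scale, for each probe set on each array. It was made with Transcriptome Analysis Console, per the submitters' processing notes. How background was corrected and signals were normalized, and the software version, are not given in the sources used here. The table has no detection flags. Values were converted to log2 and not normalized again. Genes were named from the platform annotation (23521 probe sets with 1 symbol, 1814 with several, 9137 unnamed here), and probe sets with several symbols named no gene.

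The contrast of withdrawal minus continuous NTBC was fitted across 34472 probe sets (limma 3.58.1, R 4.3.3, lmFit and eBayes, 4 residual and 10.2 total degrees of freedom). Tests were two-sided, p-values were adjusted after Benjamini-Hochberg over the whole table, and low signals were not filtered. The 3 arrays per group limit the precision. Differences between related enzymes were tested by exact permutation. Of 4 planned pairs 3 could be tested, since Akr1b3 had no probe set with a single symbol in the annotation used here. The code of the fit was also run on simulated data, and the outcome is not reported here. Alternatives were quantile normalization, median centring, a filter on dim probe sets, the replicate block, array weights, trend and robust options, other probe-set choices, a 2-fold minimum and each array left out. Other family genes past the threshold were named, up to 6 per direction by p-value, with Akr1c12 added. Cryz, Cryzl1, Ptgr2, Akr1b10, Cbr2, Cbr4, Ephx3, Ephx4 and Lta4h, which did not pass, were named for their class or name. Their relatedness in sequence to the members was not tested. The members and lists were chosen with earlier results of these data known.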

Additional observations from a re-analysis of the deposited data

How the results depend on the processing

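The count of 6 higher genes and 0 lower ones among the 9 was the same under every alternative that kept the adjusted p of 0.05 alone, and it was 5 with a 2-fold minimum. The unpassed changes of Nqo2 and Akr1b8 turned sign with quantile normalization (-0.07 and 0.06), and that of Akr1b8 with median centring (0.05). With 1 array left out, Nqo2 ran from -0.10 (without continuous replicate 2) to 0.31 and Akr1b8 from -0.23 to 0.19 (without withdrawal replicate 2, and 0.13 without continuous replicate 2). In the same settings, probe sets passing ran from 935 (without withdrawal replicate 1) to 2629 higher and from 519 to 1581 lower, other family genes from 1 to 3 lower, and the pair differences kept their direction. All probe sets passing numbered 708 lower with median centring, 3339 higher and 2249 lower with array weights, and 748 higher and 430 lower with the 2-fold minimum. The lower count of other family genes, 2 as reported, was 8 with quantile normalization, 1 with median centring, 6 with array weights, 4 with the trend and robust options and 1 with the 2-fold minimum. The causes were not tested. Deviations of same-numbered arrays from their group means correlated at 0.160, -0.125 and 0.217. Of the arrays, 2 of 3 withdrawal and 1 of 3 continuous ones correlated best with their own number. With 3 arrays per group these values constrain one another and cannot settle whether the numbers pair arrays. The main fit used no pairing. With the replicate block, 2130 probe sets were higher and 1168 lower, with 6 of the 9 genes higher. The table gives no signal over background, which limits what can be said of low signals.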

Other observations

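Within the continuous group, replicate 2 had the lowest signal for 6 of the 9 genes (Nqo1, Nqo2, Cbr1, Cbr3, Ephx1 and Ephx2) and replicate 1 the highest for 6. Within the withdrawal group, replicate 3 was the lowest for 7 of the 9. The same counts over all probe sets were not made. Array medians were 5.29, 5.44 and 5.43 with NTBC and 5.26, 5.21 and 5.39 after withdrawal. Interquartile ranges of log2 signal were 2.62, 2.42 and 2.39 with NTBC and 2.70, 2.78 and 2.53 after withdrawal. The median deviation of the 9 genes from their group mean was -0.21 on continuous replicate 2, 0.26 on continuous replicate 1 and -0.07 on withdrawal replicate 3, all on the log2 scale. For Cbr1 the SD of log2 signal was 0.45 with NTBC and 0.06 after withdrawal, and for Cbr3 it was 0.70 and 0.18.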
